A study of Oncorhynchus mykiss with 2 samples.

Results

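The 182 probes described here were bright in the somatic cells of the rainbow trout testis and not detected in type A spermatogonia, out of 55916 probes on the array. They were chosen on their measured values. A probe was kept when it was detected in somatic cells at a level of at least 1 and not detected in spermatogonia. The level is the mean over a probe's spots of the log2 processed signal, minus log2 of the 75th percentile of the array's signals, so a level of 1 lies at 994 signal units on the somatic array. Detection required that the scanner software flag over 50% of a probe's spots as well above background. Because these values chose the probes, the levels and folds below are descriptions and no test was run on them.

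Male rainbow trout carrying the transgene pvasa-GFP, in which the vasa promoter drives green fluorescent protein in spermatogonia, gave both populations by fluorescence-activated cell sorting from the immature testis. Each population was labelled with Cy3 and hybridised to 1 array, so the design has 2 arrays and 1 array per group, with no replicate check, and precision is limited by having so few arrays. They shared 1 slide, where each took a position of its own, so position and population cannot be told apart. The labels state neither the age of the fish nor the number of fish or sorts behind a sample, and the somatic sample is defined by its label alone, without a list of the cell types it holds. Because the samples are bulk, fewer cells of a type and less RNA per cell cannot be told apart.

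Type A spermatogonia are the undifferentiated germ cells from which sperm production starts, and the transgene marks them through vasa, an RNA helicase gene active in the germ line. Around them lie the somatic cells of the testis. Sertoli cells surround and nourish the germ cells, Leydig cells make steroid hormones, and peritubular, vascular and blood cells fill the remaining tissue. A transcript that is bright in such a mixture and missing from sorted germ cells is the kind of measurement used to look for markers of the somatic compartment. The array names probes only by custom numbers and by the contig (an assembly of overlapping reads) or single read behind each probe. None of the names of the 182 probes (0 matches) appeared among the 72772 genes of the trout gene table used here, so no gene, pathway or cell type is assigned to them, and the populations were not checked against marker genes.

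The 182 probes were a small part of the bright somatic transcripts. Of 7622 probes detected in somatic cells at a level of at least 1, 182 (2.39%) were not detected in spermatogonia. Another 127 (1.67%) were detected there below a level of -4, 587 (7.70%) between -4 and -2, and 1325 (17.4%) between -2 and 0. The other 5401 (70.9%) reached a level of 0 or more in spermatogonia. A level of at least 1 on both arrays was reached by 4275 of the 7622 (56.1%).

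**Figure D1:**
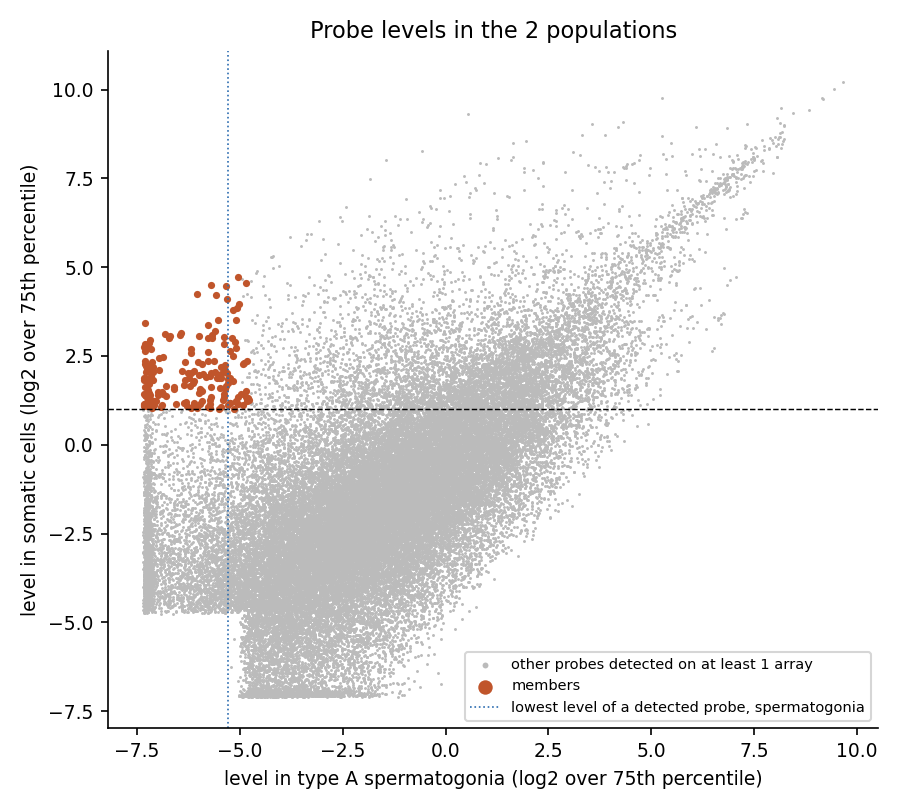
Level of each probe detected on at least 1 array, in type A spermatogonia (horizontal axis) and in somatic cells (vertical axis), both in log2 over the array's 75th percentile. The 182 members (orange) lie above the dashed line at a somatic level of 1 and between -7.34 and -4.78 in spermatogonia, around or left of the dotted line at the lowest level of a detected probe there (-5.29).

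Somatic levels of the 182 probes ran from 1.004 to 4.73, with a median of 1.83 and an interquartile range of 1.28 to 2.35. In signal units the lowest was 997, the median 1760 and the highest 13213, against a median of 132 over all 103747 non-control spots of that array. On the spermatogonial array the lowest was 4.75, the median 11.2 and the highest 32, against a median of 197 over all spots. The gap between these ranges follows largely from the rule, which picked the probes on both values, although it sets no upper limit on the spermatogonial signal. It is not a result about the members.

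The difference was written as a nominal lower bound within the 75th-percentile scale, since a signal below detection is not a measured level. It was the somatic level minus the higher of 2 values, the lowest level of a detected probe on the spermatogonial array (-5.29, a signal of 19.7) and the probe's own level there. For 152 of the 182 probes the first value set the bound, and for the other 30 their own level did. For those 30 the bound is thus a plain difference of levels. The first value is not a strict limit of detection, as member CUST_8356_PI425928001 went undetected at a signal of 27.3. All folds below are on these scaled levels, which are 1.55 times the ratios of the signals themselves (0.63 in log2), because the arrays' 75th percentiles differ. The bounds ran from 65.7-fold to 890-fold, with a median of 138-fold (7.11 in log2). They are bounds for this scale only. Unscaled signals gave 42.4-fold to 575-fold with a median of 89.3-fold (6.48 in log2), and spike-in scaling gave a median of 80.6-fold (6.33). Normexp background correction gave 32.2-fold (5.01). It adds an offset of 50 to every signal, which weighs most on dim ones. A bound of 128-fold or more was reached by 98 of the 182 probes, against 225 (0.479%) of all 47008 probes detected on at least 1 array. One of 256-fold or more was reached by 33 of them, against 75 (0.160%) of all, and one of 512-fold or more by 7, against 28 (0.0596%). The rule used the same contrast, so nothing follows from these shares about the members. Conversely, the members made up 43.6% of all probes at least 128-fold higher in somatic cells and 25.0% of those at least 512-fold higher, so most of the probes past these folds had a detected spermatogonial signal.

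The brightest member was probe CUST_23954_PI425928001, made from a single read and present as 1 spot. Its signal was 13213 in somatic cells and 23.4 in spermatogonia, a scaled bound of 875-fold and an unscaled one of 565-fold. Probe CUST_1111_PI425928001 gave 11621 and 26.6, with bounds of 676-fold scaled and 437-fold unscaled. Both had more signal in spermatogonia than the dimmest probe counted as detected there, yet their own spots were not well above background. Probe CUST_4929_PI425928001 gave 11334 in somatic cells and 14.9 in spermatogonia, and its scaled bound of 890-fold was the largest of the 182. Without scaling it was 575-fold, and the lowest value over the 7 alternative settings was 212-fold. Probe CUST_19188_PI425928001 gave 11059 and 18.9, with bounds of 868-fold scaled and 561-fold unscaled. These 4 probes had the highest somatic levels of the members (4.48 to 4.73), and all 4 came from single reads with 1 spot each, so they have no repeat spot to set an error.

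Among the 12 brightest members, 3 came from contigs and had repeat spots. Probe CUST_21194_PI425928308 (contig YGL02.16367.C1) gave 9109 and 9564 over its 2 spots in somatic cells, and 10.3 and 13.1 in spermatogonia. The SD of its log2 level was 0.0497 in somatic cells and 0.253 in spermatogonia, and the bound was 733-fold scaled and 473-fold unscaled. The repeat spots of this probe differed far less than the populations did, but the rule picked it for that difference, so the comparison tests nothing. Probe CUST_6121_PI425928308 (contig YGL02.3655.C1) gave 6681, 6967 and 7167 in somatic cells and 18.6, 21.2 and 24.6 in spermatogonia, where 1 of its 3 spots was well above background, and its bound was 504-fold scaled and 325-fold unscaled. Probe CUST_18520_PI425928308 (contig YGL02.13850.C1) gave 5321, 5808 and 5914 in somatic cells and 12.9, 16.7 and 21.3 in spermatogonia, with bounds of 445-fold scaled and 288-fold unscaled. Repeat spots lie on 1 array, so their SD holds no variation among fish, sorts or labelling.

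The other 5 of the 12 came from single reads with 1 spot. Probe CUST_1829_PI425928020 reached 9175 signal units in somatic cells and 16.0 in spermatogonia, with bounds of 720-fold scaled and 465-fold unscaled. Probe CUST_1019_PI425928020 had 8497 and 19.4, and its bounds were 667-fold scaled and 431-fold unscaled. Probe CUST_1267_PI425928020 had 7753 and 23.7, and its bounds were 507-fold scaled and 327-fold unscaled. These 3 lay in the same range of spermatogonial signal as the contig probes above. Probe CUST_7765_PI425928001 had 7217 in somatic cells and 22.8 in spermatogonia, bounds of 490-fold scaled and 316-fold unscaled. Probe CUST_11111_PI425928001 had 5728 and 22.5, bounds of 395-fold and 255-fold. Over the 7 alternative settings, the lowest bounds of these 12 probes ran from 97.0-fold to 212-fold. All 12 of the brightest members were positive and significant against background in spermatogonia at each of their spots, by a less strict flag of the software.

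**Figure D2:**
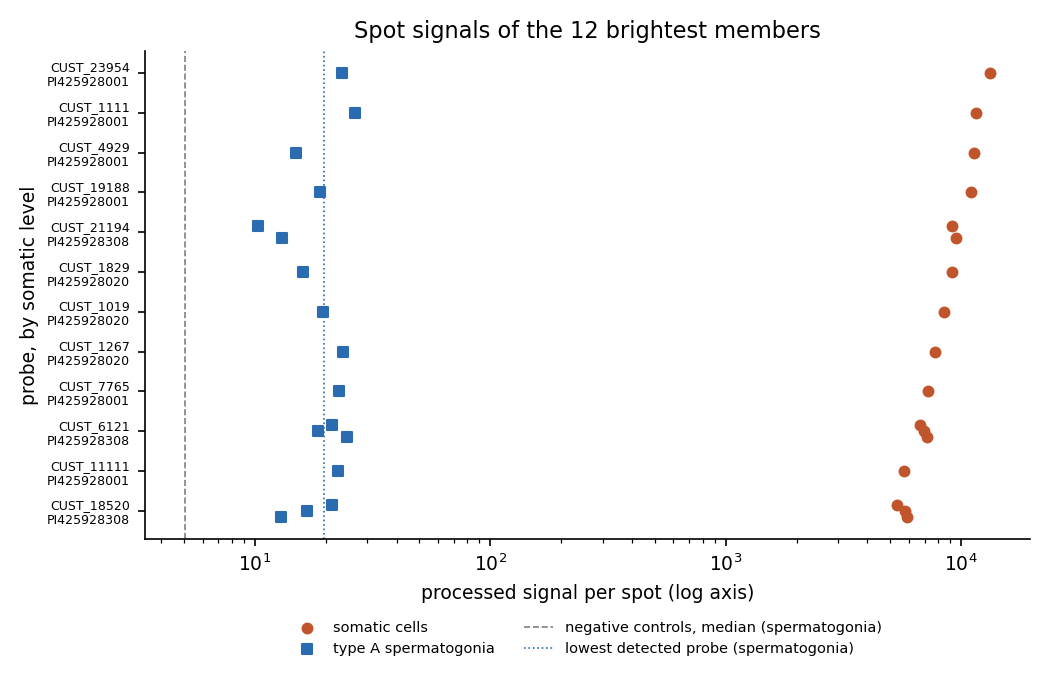
Processed signal of every spot of the 12 brightest members on a log axis, in somatic cells (orange circles) and type A spermatogonia (blue squares). All somatic spots lie at 5321 or more and all spermatogonial spots at 26.6 or less, around the lowest detected probe (19.7, dotted) and above the median of the negative controls (5.05, dashed).

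Measurement on the somatic array was tight. All 182 members had all of their spots well above background there, which the rule makes likely. Of the members, 80 had 1 spot, 34 had 2 and 68 had 3 after outlier spots were dropped. Over the 102 with at least 2 spots, the median SD of the log2 somatic level was 0.0414, close to the 0.0415 of all 4348 bright somatic probes with repeat spots. It exceeded 0.2 in 3 members. The largest SD, 0.486, was that of probe CUST_6814_PI425928308 (contig YGL02.4147.C1), whose spots gave 2940, 5237 and 5307 in somatic cells. Probe CUST_11259_PI425928308 followed with an SD of 0.374 and a level of 1.03, so its spread spans the threshold of the rule, and probe CUST_17457_PI425928308 had an SD of 0.243 at a level of 1.66. On the spermatogonial array the median SD over repeat spots was 0.258, with a range from 0.00118 to 2.04. Some members at background had small SDs there, such as CUST_17029_PI425928308 (signal 4.83, SD 0.0331). What set the spread on that array was not tested.

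"Not detected" covered different amounts of spermatogonial signal. By the less strict flag, 108 of the 182 members (59.3%) were positive and significant at all of their spots in spermatogonia, 27 at some, and 47 (25.8%) at none. On the same array the flag was set for 11 (3.67%) of the 300 negative control spots, and the stricter one for 4 (1.33%). Of all 103747 non-control spots there, 93380 carried the less strict flag, against 238 of the 352 spots of the members. Members were chosen as undetected by the stricter flag, so the rule favours a lower share among them. Members with all spots positive had a median signal of 15.9 in spermatogonia (from 5.02 to 28.0). Members with none had a median of 5.04 (from 4.75 to 5.85), at the median of the negative controls (5.05). In all, 58 members (31.9%) lay at or below 5.91, the 95th percentile of the negative controls. The 10367 non-control spots that were not positive on this array held signals from 4.72 to 6.68 only, so the order of members within that narrow band was not read. The name "undetected" thus describes the stricter flag, and only 60 of the 182 probes met the rule when the less strict flag defined detection in both populations.

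**Figure D3:**
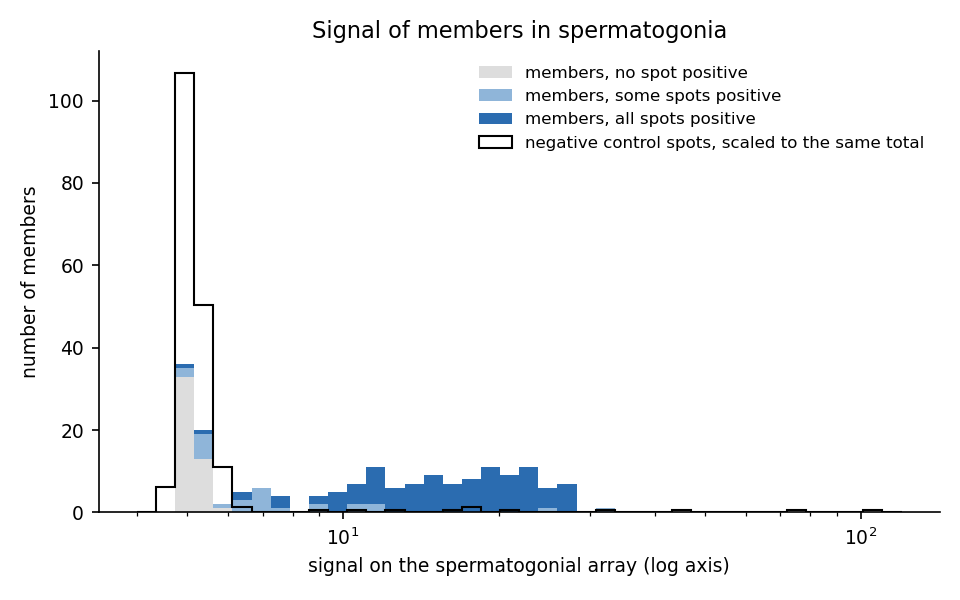
Number of members by their signal on the spermatogonial array (log axis), stacked by how many of their spots were positive and significant, with the 300 negative control spots outlined and scaled to the same total. Members fall into a peak at the signal of the negative controls (47 with no positive spot, median 5.04) and a broad range above it (108 with all spots positive, median 15.9).

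Residual spermatogonial signal was also counted by somatic brightness. Of 105 members at somatic levels from 1 to 2, 55 (52.4%) had all spots positive in spermatogonia and 30 (28.6%) had none. From 2 to 3 it was 31 (58.5%) and 17 (32.1%) of 53. All spots were positive in 15 of 17 members from 3 to 4 and 7 of 7 from 4 to 5, and 0 members of either range lacked a positive spot, but these ranges hold few members. The median spermatogonial signal in the 4 ranges was 10.6, 9.48, 14.9 and 18.9, so it did not rise at each step. Members with 1 spot meet "all spots positive" more easily, and 54 of the 80 single-read members did so against 54 of the 102 contig members. Of the 7 brightest, 6 had 1 spot. On the unscaled signals, a member's spermatogonial value was between 0.0915% and 2.38% of its somatic value, with a median of 0.488%. In 58 members that value lay at or below the 95th percentile of the negative controls, so their ratio is not a measured residual level. What produced the faint signal was not tested.

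Detection itself was near its limit for some members. Of the 182, 167 had no spot well above background in spermatogonia, 11 had 1 of 3 and 4 had 1 of 2. Just outside the rule lay 11 probes of the same somatic brightness that were detected in spermatogonia with some but not all of their spots above background. The spots of member CUST_5005_PI425928308 (contig YGL02.2914.C1) disagreed most in spermatogonia, at 5.39, 10.1 and 80.4 (SD 2.04 in log2), while its somatic spots gave 1768, 1804 and 1913. At the level threshold, the members just inside were CUST_10921_PI425928001, CUST_15091_PI425928001 and CUST_4083_PI425928308, with somatic levels of 1.004, 1.011 and 1.028. Just outside lay CUST_5374_PI425928308, CUST_16433_PI425928308 and CUST_8574_PI425928001, with levels of 0.993, 0.987 and 0.986. These probes were picked for lying nearest the threshold, so their likeness in brightness follows from that choice.

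Under scaling to the 75th percentile, the mirrored rule found no counterpart in the germ cells. Of 7028 probes detected in spermatogonia at a level of at least 1, 0 were not detected in somatic cells, against 182 of 7622 the other way. At a threshold of 0 the counts were 6 of 12104 (0.0496%) and 368 of 12451 (2.96%), and at -1 they were 117 of 18427 (0.635%) and 726 of 18702 (3.88%). At dim levels the order turned. From -4 to -3, 26.5% of the probes detected in spermatogonia were not detected in somatic cells, against 20.9% the other way. Such levels lie near the detection limit, and equal levels stand for unequal signals on the 2 arrays. Whether the turn holds under other scalings was not tested. The brightest probe detected in spermatogonia alone was CUST_15801_PI425928001, with a level of 0.56, a signal of 1136 there and 19.4 in somatic cells. The threshold is relative to each array, and with no scaling, spike-in scaling and scaling to the median of detected probes the mirrored rule found 2, 4 and 9 probes, against 182, 182 and 414 in the somatic direction. With 1 array per population, no test of this difference was made.

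**Figure D4:**
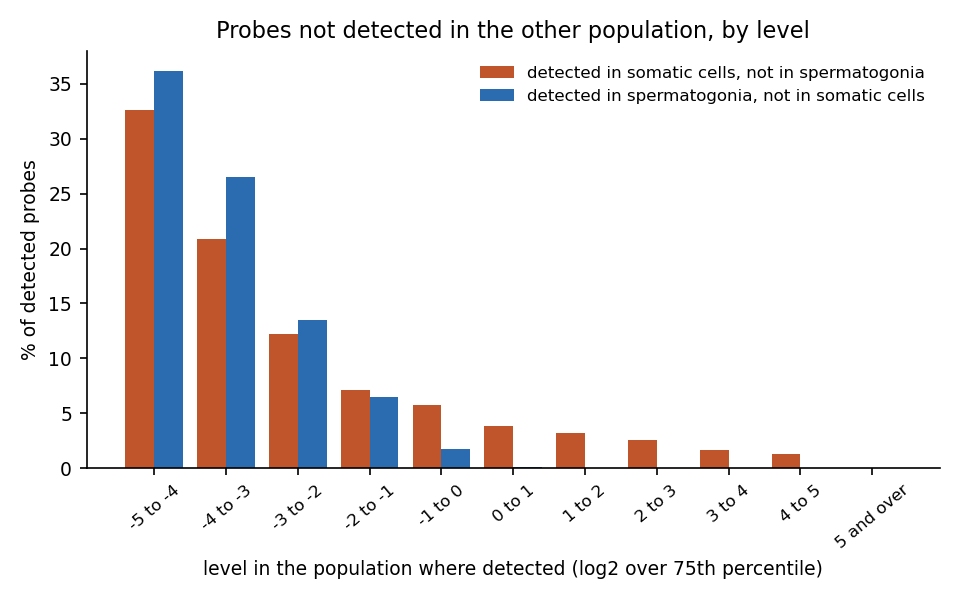
Percentage of detected probes that were not detected in the other population, by level in the population where they were detected (log2 over the 75th percentile), for somatic cells (orange) and type A spermatogonia (blue). From 1 to 2 the share was 3.23% for somatic cells and 0% for spermatogonia, and at 5 and over it was 0% for both.

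Within somatic cells, the share of probes not detected in spermatogonia fell steadily with brightness. A dim probe lies closer to the lowest detected spermatogonial level (-5.29), so a smaller difference leaves it undetected. The detection limit thus favours such a fall by construction. In the mirrored direction the share fell too, from 36.2% at levels from -5 to -4 to 0.118% from 0 to 1. It was 32.6% at levels from -5 to -4, 12.2% from -3 to -2 and 5.73% from -1 to 0. Above the threshold it was 3.23% (105 of 3249) from 1 to 2, 2.60% (53 of 2040) from 2 to 3, 1.65% (17 of 1029) from 3 to 4 and 1.30% (7 of 539) from 4 to 5. None of the 765 probes at 5 or more (0) went undetected in spermatogonia. The brightest somatic transcripts all had some spermatogonial signal above background.

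Contigs made up about the same share of the members as of all bright somatic probes. Of the 182, 102 came from contigs (56.0%, exact binomial 95% interval 48.5% to 63.4%, counting error only) and 80 from single reads. Among all 7622 bright somatic probes the contig share was 57.2%, and over the whole array 51.1%. Put the other way, 2.34% of 4356 bright contig probes and 2.45% of 3266 bright single-read probes were members. Single-read members were somewhat brighter, with a median somatic level of 1.99 against 1.68 for contig members, as among all bright somatic probes (2.36 against 2.13). Of the 12 brightest members 9 were single reads, a contig share of 25.0%. These 12 are few, are part of the 182 and were picked by the somatic level that the rule used. No comparison of their share with that of all members was therefore drawn. The spots of the members were spread over the array, with 23.6% to 27.3% in each quadrant against 24.8% to 25.2% for all spots.

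Contigs whose names share a number gave readings from related probes. The sources used here do not explain the shared number, so these contigs are not counted as separate transcripts. Fewer contig members had such a relative than bright contigs did in general. It was 28 of 102 (27.5%), against 2129 of 4356 (48.9%) for all bright somatic contigs. These shares were not matched for brightness, and contig members were dimmer, with a median somatic level of 1.68 against 2.13. Whether the difference in share goes with brightness was not tested. The 28 members fell into 24 sets, and 4 of these sets held 2 members.

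In the sets with 2 members, the paired probes had somatic levels within 0.2 in log2 in all but 1 of the 4 sets. The rule required a level of at least 1 from both probes of a pair. No other pairs were compared and the sets are few, so this is a description only. Contigs YGL02.3595.C1 and YGL02.3595.C2 had somatic levels of 1.17 and 1.21 and spermatogonial levels of -6.35 and -6.32. Contigs YGL02.7959.C1 and YGL02.7959.C2 had 2.15 and 2.01 in somatic cells, and -7.23 and -6.27 in spermatogonia. Contigs YGL02.4576.C1 and YGL02.4576.C2 stood further apart in somatic cells, at 2.24 and 3.06, with -5.36 and -5.99 in spermatogonia. In the last set, contigs YGL02.1540.C1 and YGL02.1540.C3 had 1.81 and 1.69 in somatic cells and -6.34 and -6.37 in spermatogonia, while YGL02.1540.C2 (0.79) and YGL02.1540.C4 (-2.78) fell below the somatic threshold. None of the 4 contigs of that set was detected in spermatogonia.

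The remaining relatives of members also leaned to somatic cells. They were reached through members chosen for this same contrast and are not counted as separate transcripts, so they give no independent support. Relatives of other bright contigs were not compared. Of 28 related contigs that were not members, 16 were detected in both populations, 10 in somatic cells alone, 2 in neither and 0 in spermatogonia alone. Of the 26 detected ones, 24 were higher in somatic cells by at least 4-fold, against 15.1% of all 47008 probes detected on at least 1 array. Restricted to the 16 with signal in both populations, 14 reached that fold, against 12.5% of all 37959 such probes, with a median difference of 5.39 in log2 (from 1.14 to 8.90). All these folds are on the scaled levels. The 2 below 4-fold were YGL02.14642.C1 (2.20-fold) and YGL02.16217.C2 (3.67-fold).

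Some relatives were detected in spermatogonia while the member itself was not. Their signals there differed widely. The weakest, 29.4 in YGL02.3791.C1, was close to the 28.0 of the undetected member YGL02.16217.C1. By the rule, a related contig at a somatic level of 1 or more that is not a member is detected in spermatogonia, and 13 were of this kind. In the set of YGL02.2311, contigs C1, C2 and C5 had somatic signals of 6976, 7179 and 6150 and spermatogonial signals of 261, 262 and 326, whereas the member C3 had 1014 and 11.6. Contig YGL02.5514.C1 gave 22031 in somatic cells and 161 in spermatogonia, against 1847 and 11.6 for the member YGL02.5514.C2. Contig YGL02.2602.C1 gave 11001 and 35.7, a 477-fold difference on the scaled levels, against 1359 and 5.19 for the member YGL02.2602.C2. Each of the 13 was brighter than the member of its set in both populations. The other 3 related contigs detected in both populations were the reverse in somatic cells, where they were dimmer than their member, and were still brighter in spermatogonia. YGL02.14642.C1 gave 209 in somatic cells and 147 in spermatogonia, against 1689 and 5.14 for the member YGL02.14642.C2. YGL02.16217.C2 gave 187 and 79.0, against 1198 and 28.0 for the member YGL02.16217.C1. YGL02.9105.C2 gave 537 and 48.0, against 1292 and 4.92 for the member YGL02.9105.C1.

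**Figure D5:**
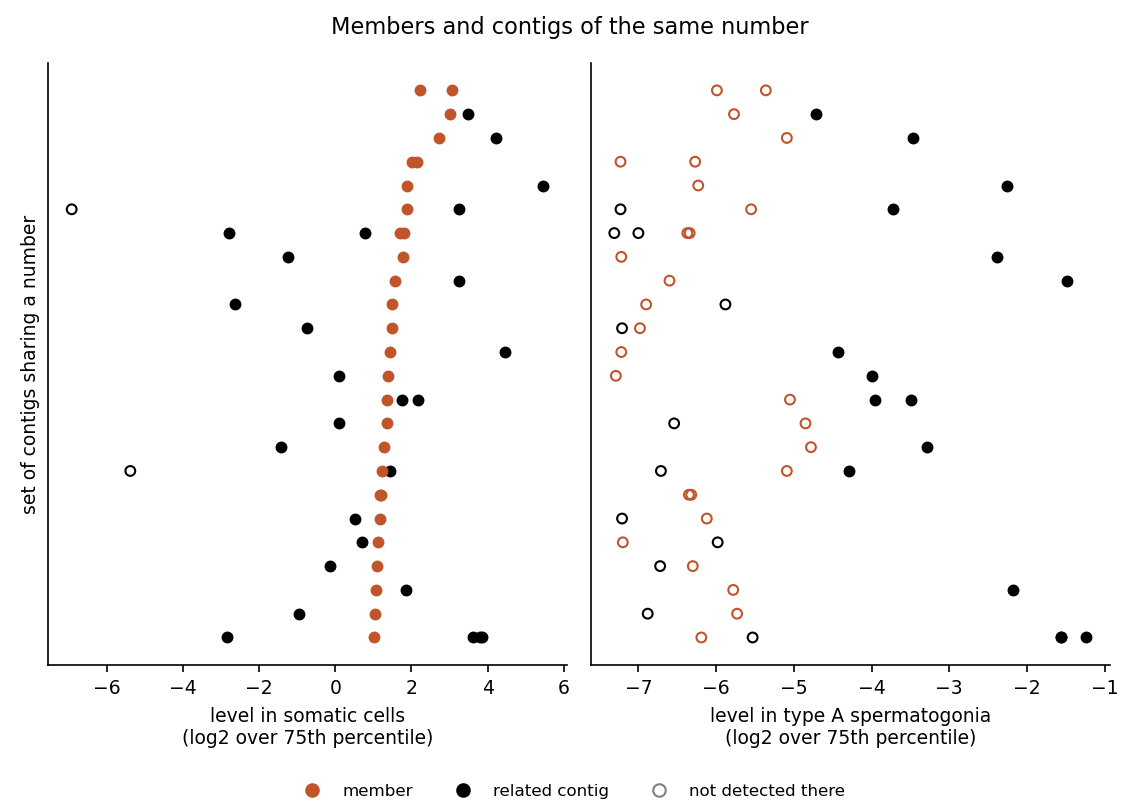
Levels (log2 over the 75th percentile) of members (orange) and related contigs (black) in the 24 sets that hold a member and at least 1 other contig, one set per line, in somatic cells (left) and type A spermatogonia (right), with open circles for probes not detected there. Of the 28 related contigs, 16 are detected in spermatogonia, and all members lie at -4.78 or below there.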

How the data were processed

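Scanner output of Agilent Feature Extraction was used, with version 10.7 named in the submitters' processing notes and 10.7.3.1 in the file headers. The deposited intensity of each spot is background-subtracted and detrended within the array, not between arrays, per the file headers. The authors' deposited value table was taken as log2 from its values (columns with the same median, 6.97, and slopes of 1.00 and 0.999 on the log2 scanner levels), and the sources used here do not give its scaling step. Control spots and 2244 outlier spots were left out, and 12 probes lost all spots. No spot was saturated (0). The 75th percentiles were 769 in spermatogonia and 497 in somatic cells. Samples were grouped by the labelled cell type. The members and lists were chosen with earlier results of these data known. Named are the 12 brightest members, the 5 with the largest bounds, the 3 on each side of the level threshold, the 3 with the largest spot SD and sets with at least 2 members. CUST_5005_PI425928308, CUST_8356_PI425928001, CUST_17029_PI425928308, the related contigs and CUST_15801_PI425928001 were named after their values were seen. Marker lists were not computed, since no probe carries a gene name, and no sequence is shown, because probe sequences were not given. The code was run on simulated arrays whose members had their levels and detection flags set clear of the limits of the rule. That run checks the code only and says nothing about borderline members. Alternatives used limma 3.58.1 (normexp, offset 50, on median spot signals), Python 3.11.15 and scipy 1.17.1.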

Additional observations from a re-analysis of the deposited data

Results flagged for a closer look

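Control probe ETG10_195139, which lies outside the comparison, was detected in somatic cells and not in spermatogonia. Its median signal over 20 spots was 137 in somatic cells and 5.14 in spermatogonia. At a somatic level of -1.86 it was below the level that defines the members. No other control probe of the 59 was detected in somatic cells with no spot above background in spermatogonia. The sources used here do not say what it binds.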

How the results depend on the processing

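Of 182 probes, 60 met the rule with the less strict detection flag (median bound 8.92 in log2, all 60 at least 32-fold), against 7.11 for all 182. By construction, a somatic threshold of 0 gave 368 probes (median 6.21, all 368 at least 32-fold, 6 by the mirrored rule) and a threshold of 2 gave 77 (7.88, all 77, contig share 48.1%). Scaling to the median of probes detected on both arrays lowers the threshold and gave 414 probes (6.13, 407 at least 32-fold, 9 mirrored). No scaling and spike-in scaling add a constant to the spermatogonial levels and left the 182 probes as they were, with medians of 6.48 and 6.33 and 2 and 4 mirrored probes. Normexp kept 174 of them, with a median of 5.01 and 89 at least 32-fold. With the threshold at the same rank it gave 183 probes, a median of 4.96 and 89 at least 32-fold, and its offset lowers dim-signal differences by construction. Requiring that no spermatogonial spot be above background kept 167 probes (7.92), and the median over spots gave 6.84. These settings and the less strict flag also recompute the lowest detected spermatogonial level, which set most bounds. Under the median over spots it alone moved the bound of CUST_19188_PI425928001, which has 1 spot, from 9.76 to 9.49. The largest bound rose from 890-fold to 1240-fold with no spot above background and to 1690-fold with the less strict flag, where that level fell. Part of these shifts is thus by construction, and the rest was not tested. Probes with at least 2 spots, chosen after seeing the data as was the rank threshold, numbered 102 (102 at least 32-fold, contig share 100%). Quantile normalization kept 177 probes and the values of the authors' table kept 176, and counts changed little with outlier spots kept or with all spots required. Over 7 settings, 0 of the recomputed bounds of the 26 named members reversed, which was likely for probes picked for their difference, and the lowest was 4.11 in log2. No paired analysis was possible because each group has 1 array. Replicates could not be left out for the same reason. Gene-level alternatives were not run, since no probe carries a gene name. Signal over background limits the spermatogonial values, so the 182 folds are nominal and not strict limits. For 152 they are bounds from the lowest detected level, and for the other 30 plain differences of levels.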
